A study of Mus musculus with 14 samples.

Results

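Myeloid cell genes were followed in CD4+ T-cell RNA of Roquin san/+ and wild-type mice. The 37 genes were chosen by name, with earlier results of these arrays known, as genes of macrophages, dendritic cells and neutrophils, out of 36870 gene names on the array. They comprised 17 macrophage genes, 6 dendritic cell genes, 7 neutrophil genes and 7 genes shared by several myeloid cell types, and 58 of the 56605 probes on the array carried one of these names. Cd68, Itgax and Siglech had 3 probes each, 15 members had 2 and the rest had 1, and a gene's values are those of its brightest tested probe. There were 14 one-colour arrays, 7 labelled Roquin san/+ and 7 labelled wild-type, with replicate letters A to G in each genotype. Roquin san/+ animals are heterozygous for the sanroque allele of Roquin (Rc3h1), a ubiquitin ligase and RNA-binding protein that restrains follicular helper T-cells. The labels gave no treatment, strain background, age or tissue of origin, and did not say whether each array came from a separate animal, so that p-values measure only the spread between these arrays, which may be technical.

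Neutrophils and many macrophages and dendritic cells derive from bone marrow myeloid progenitors, in which the transcription factors PU.1 (Spi1), C/EBPα (Cebpa) and C/EBPβ (Cebpb) act. Macrophages engulf and digest particles, dendritic cells present antigen to T-cells, and neutrophils kill microbes with the contents of granules that are made in sequence, the primary granules in promyelocytes and the secondary granules at later stages. Lysozyme, granule proteins and C1q are products of myeloid cells and not of CD4+ T-cells. In RNA of a whole preparation, the number of cells of a type and the amount of RNA per cell cannot be told apart.

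The probes are 60 bases long and each reports only the stretch of transcript that it matches. For 5 genes that anchor the results, a probe with an open reading frame through its whole length is shown in lower case. These are the Lyz2 probe at chr10:116719175-116719234 (minus strand), the C1qb probe at chr4:136436578-136436637 (minus strand), the S100a8 probe at chr3:90473778-90473837 (plus strand), the Tyrobp probe across a splice junction, within chr7:31200651-31202378 (plus strand), and the Mpo probe at chr11:87615121-87615180 (plus strand), all in the mm9 build of the array design.
Lyz2: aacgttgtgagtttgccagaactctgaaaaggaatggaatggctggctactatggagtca
C1qb: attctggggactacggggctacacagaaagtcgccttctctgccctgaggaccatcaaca
S100a8: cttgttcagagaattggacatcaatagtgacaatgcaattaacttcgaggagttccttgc
Tyrobp: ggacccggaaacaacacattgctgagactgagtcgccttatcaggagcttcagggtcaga
Mpo: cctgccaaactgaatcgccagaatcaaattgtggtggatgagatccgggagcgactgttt

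Tandem repeats marked out 2 of the 58 member probes. They were the probes used for Itgam (CD11b) and for Siglech, and 30 bases of each are shown because such a stretch is not particular to 1 gene. The Itgam stretch lies at chr7:135261755-135261784 and the Siglech stretch at chr7:63034118-63034147, both on the plus strand of mm9, with the repeat in capitals. A second Itgam probe, at chr7:135212140-135212199, has no repeat and is shown whole.
Itgam, repeat probe: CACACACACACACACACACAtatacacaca
Siglech, repeat probe: tctgtctcAAAGAAAGAAAGAAAGAAAGaa
Itgam, second probe: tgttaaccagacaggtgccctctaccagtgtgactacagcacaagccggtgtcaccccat

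Of all 56605 probes, 709 (1.25%) held a run of at least 12 bases made of a repeated unit of 2 to 4 bases. Because of these repeats, values of Itgam and Siglech are also given for another tested probe of each gene.

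Some arrays stood apart. Replicate G of Roquin san/+ and replicate E of wild-type had been read 2 grid rows away from their probe names. Once their spots were moved back, they correlated with the median of the 12 well-placed arrays at 0.91 and 0.89, up from 0.01. Their detection calls could not be repaired, and dim probes on them sat at a lowest value of -5.88 and -5.67, so levels are given over the 12 well-placed arrays, 6 of each genotype. Roquin san/+ replicate C was dim, with a 75th percentile of the processed signal of 800.4 against 4897.7 to 13112.2 on the others, and held the highest level of the 12 for 44.0% of all tested probes. Genotype was unbalanced over slides, since slide 1 carried 5 Roquin san/+ arrays beside 2 of wild-type, and slide 2 carried 2 beside 5. Over the 12 well-placed arrays Cd3e, part of the T-cell receptor complex, lay at 0.85 to 2.36 and Cd4 at -1.36 to 0.74. Roquin san/+ F had the lowest value of both, with Cd4 1.72 below the median of the other Roquin san/+ arrays, and on it Cd8b1, the β chain of CD8, lay 3.57 above that median. A level here is the log2 signal relative to the 75th percentile of bright probes on the same array, so 0 marks a bright probe.

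Signal from myeloid genes was present in both genotypes. Of the 37 members, 34 were well above background on at least 6 of the 12 well-placed arrays and were compared, and 25 of the 37 were well above background on all 12. Counted by probe, 48 of 58 member probes were compared, beside 32831 of all 56605 probes. No member probe was saturated. The 3 members left out were the C1q genes C1qa and C1qc, each well above background on 5 arrays, and the chemokine receptor Xcr1 of cross-presenting dendritic cells, well above background on 1 array. Which cells carried the signal was not measured.

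A single array, Roquin san/+ replicate F, held the highest level of the 12 for 27 of the 34 members, whereas it was highest for 12.2% of all tested probes. It was highest for 13 of 15 macrophage, 4 of 5 dendritic, 5 of 7 neutrophil and 5 of 7 shared genes. Wild-type replicate C came second for 15 members and was the highest of the 6 wild-type arrays for 21. At the other end, wild-type replicates D and G were lowest of the 12 for 14 and 9 members, and Roquin san/+ replicate E was the lowest of its 6 for 21. The genotypes overlapped on the 12 well-placed arrays for all 34 members, and failed to overlap for 0.880% of all tested probes.

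**Figure D1:**
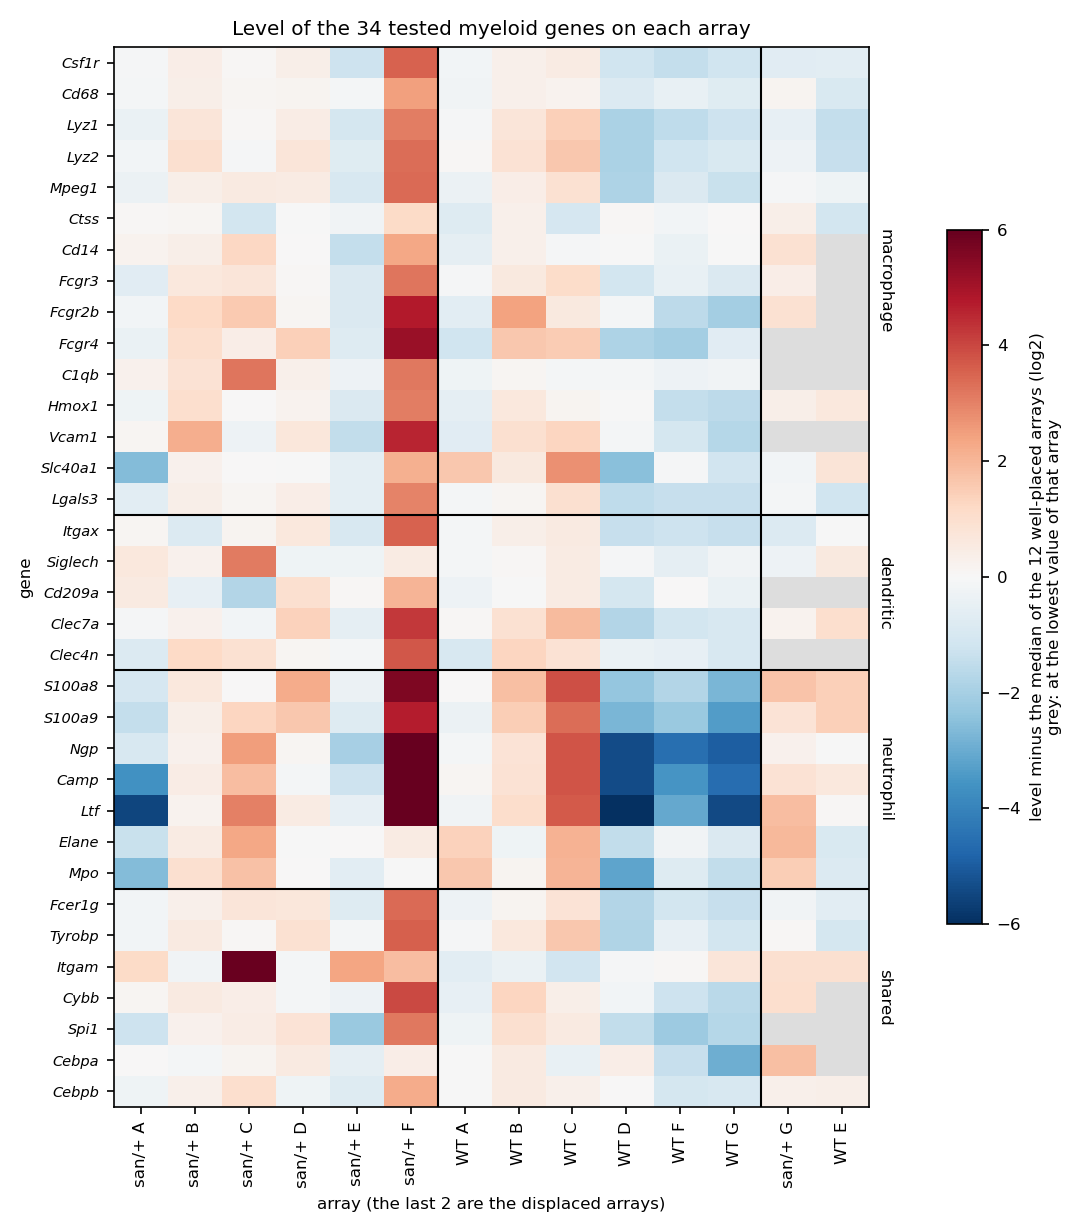
Level of the 34 tested myeloid genes (rows, grouped as macrophage, dendritic, neutrophil and shared) on each array (columns, 6 well-placed Roquin san/+, 6 well-placed wild-type, then the 2 displaced arrays), as the log2 difference from the gene's median over the 12 well-placed arrays. Colours end at 6 in either direction and grey marks values at an array's lowest signal. Roquin san/+ F was highest for 27 of the 34 genes, with Elane and Mpo among those for which it was not.

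Genes of macrophages came first by number. Csf1r, the receptor for the growth factor that macrophages depend on, lay at -3.44 to 1.34 on the 6 Roquin san/+ arrays (median -1.98) and at -3.63 to -1.71 on the 6 wild-type arrays (median -2.86). The Roquin san/+ maximum was replicate F, and the other Roquin san/+ arrays ended at -1.80, below the wild-type maximum. Its difference, Roquin san/+ minus wild-type over all 14 arrays, was 0.89 (SE 0.60) on the log2 scale and 0.35 without replicate F. A second Csf1r probe followed another order, with its highest level on Roquin san/+ C, and correlated with the first at 0.26 over the 12 arrays.

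The lysozymes break down bacterial cell walls. Lyz2, the lysozyme of macrophages and neutrophils, ranged from 0.74 to 4.78 on the Roquin san/+ arrays (median 1.78) and from -0.46 to 3.07 on the wild-type arrays (median 1.03). Roquin san/+ F was highest and wild-type C second, and the ranges overlapped through most of their length. The difference was 0.94 (SE 0.66), and 0.48 without replicate F. The Lyz2 probe whose sequence is printed above followed the Lyz2 probe used here (r = 0.93 over the 12 arrays, which share each array's scaling). Lyz1, the neighbouring and near-identical lysozyme of Paneth cells, gave -1.34 to 2.76 in Roquin san/+ (median -0.04) and -2.18 to 1.15 in wild-type (median -0.95), with a difference of 0.90 (SE 0.65). The lysozyme genes are similar enough for a probe of one to bind transcripts of the other, and Lyz1 values are uncertain for that reason.

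Genes of the digestive compartment varied by different amounts. Cd68, a lysosomal membrane glycoprotein, was between -3.77 and -1.23 in Roquin san/+ (median -3.55) and between -4.49 and -3.36 in wild-type (median -4.01). Its difference was 0.81 (SE 0.37), and 0.47 without replicate F. Mpeg1, a pore-forming protein of phagosomes, was between -3.80 and 0.57 in Roquin san/+ (median -2.41) and between -4.67 and -1.90 in wild-type (median -3.46). Its difference was 0.96 (SE 0.59). Cathepsin S (Ctss), the protease that trims the invariant chain in antigen-presenting cells, varied least of the macrophage genes, by 2.24 over the 12 arrays. It lay at 0.57 to 2.82 in Roquin san/+ (median 1.71) and at 0.68 to 1.98 in wild-type (median 1.60), and its difference was 0.44 (SE 0.32). Unlike most members, Ctss was lowest of the 12 on Roquin san/+ C and lowest of the wild-type arrays on replicate C.

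Lgals3 (galectin-3), a carbohydrate-binding protein abundant in macrophages, lay at -1.87 to 1.72 in Roquin san/+ (median -1.01) and at -2.80 to -0.32 in wild-type (median -2.01). Its difference was 1.01 (SE 0.54). Another Lgals3 probe had the lowest unadjusted p of any member probe, 0.0319, with an adjusted p of 0.884 in limma. Cd14, the co-receptor for lipopolysaccharide, was dim, at -7.91 to -4.13 in Roquin san/+ (median -6.18) and at -7.01 to -6.14 in wild-type (median -6.52), with a difference of 0.51 (SE 0.44). Hmox1, the enzyme that degrades haem, was between -5.04 and -1.10 in Roquin san/+ (median -4.06) and between -5.75 and -3.53 in wild-type (median -4.47), with a difference of 0.81 (SE 0.55). In these 3 genes the highest Roquin san/+ array was again replicate F.

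Fc receptors bind the constant part of IgG and lie together on chromosome 1. Fcgr2b, the inhibitory receptor, which B cells also express strongly, spread from -6.86 to -1.20 in Roquin san/+ (median -5.31) and from -8.00 to -3.58 in wild-type (median -6.34). Its highest wild-type array was replicate B and its highest Roquin san/+ array was replicate F, the arrays with the highest mean level of B-cell genes in each genotype. Fcgr3, an activating receptor, was between -5.80 and -1.74 in Roquin san/+ (median -4.59) and between -6.04 and -3.83 in wild-type (median -5.22). Fcgr4, the activating receptor of monocytes and neutrophils, was well above background on 7 of the 12 arrays and lay at -8.49 to -2.52 in Roquin san/+ (median -6.99) and at -9.76 to -6.09 in wild-type (median -8.64). The differences were 1.23 (SE 0.82) for Fcgr2b, 0.72 (SE 0.55) for Fcgr3 and 1.33 (SE 0.92) for Fcgr4. Without replicate F they were 0.62, 0.27 and 0.67.

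C1q starts the classical complement pathway and is made mainly by tissue macrophages, from 3 neighbouring genes on chromosome 4. C1qb was the one chain that was well above background on all 12 arrays, at -7.87 to -4.34 in Roquin san/+ (median -6.98) and at -7.87 to -7.47 in wild-type (median -7.74). Its 2 high values came from Roquin san/+ C at -4.34 and Roquin san/+ F at -4.39, and the other 4 Roquin san/+ arrays ended at -6.70. The difference was 1.18 (SE 0.57). C1qa and C1qc, too dim to be compared, were both highest on Roquin san/+ F, at -4.81 and -3.46. Their wild-type maxima were -8.17 and -6.75.

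Genes of iron-recycling macrophages had differences of both signs. Vcam1, an adhesion molecule that such macrophages and stroma share, was well above background on 8 arrays, at -9.21 to -3.18 in Roquin san/+ (median -7.33) and at -9.45 to -6.43 in wild-type (median -8.14), with a difference of 0.98. Slc40a1 (ferroportin), the iron exporter, was the 1 member of 34 with a lower mean in Roquin san/+, with a difference of -0.43 (SE 0.77). It lay at -7.16 to -2.41 in Roquin san/+ (median -4.56) and at -7.05 to -1.82 in wild-type (median -4.30), highest on wild-type C. A second Slc40a1 probe gave a difference of 0.51. Ferroportin is also expressed by erythroid cells, and haemoglobin Hba-a1 was likewise at its wild-type maximum on replicate C, at 4.56. Over the 15 macrophage genes tested, 14 had a difference above 0, beside 63.4% of all tested probes. Their median difference was 0.90, or 0.45 without replicate F, beside a median of 0.10 over all tested probes.

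**Figure D2:**
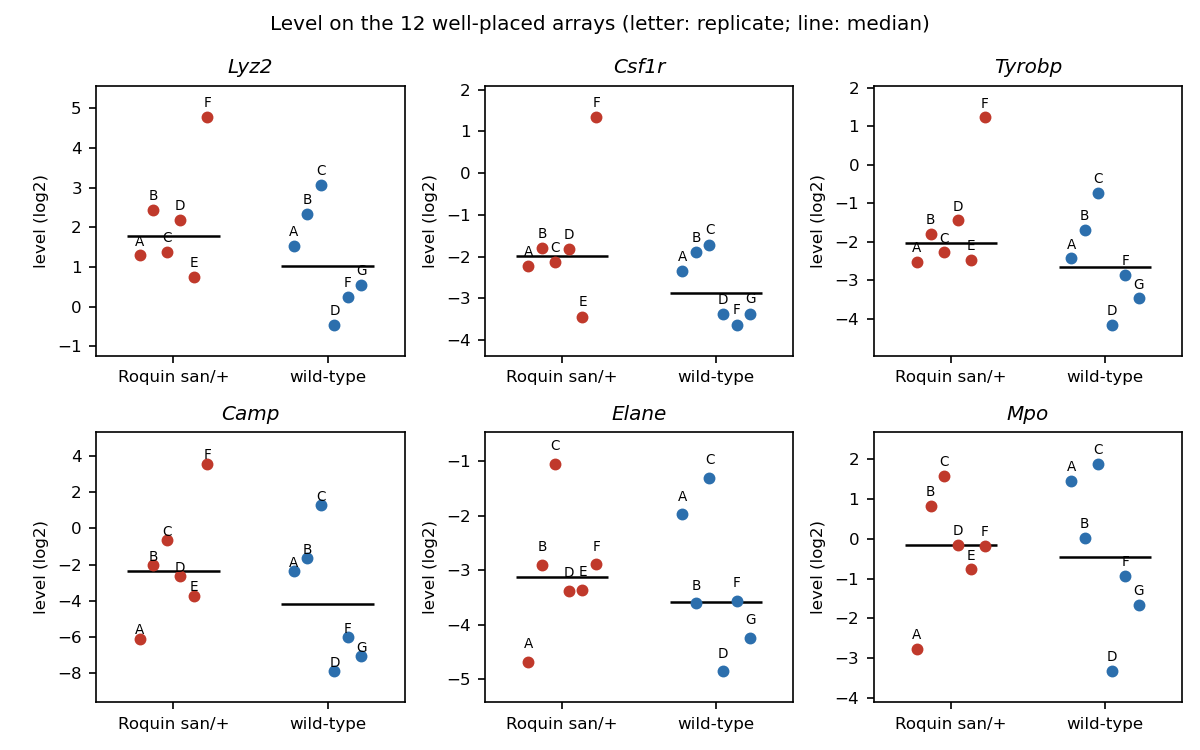
Level (log2, relative to the 75th percentile of bright probes) of Lyz2, Csf1r, Tyrobp, Camp, Elane and Mpo on the 12 well-placed arrays, by genotype. Each point is an array with its replicate letter and each line a median. Replicate F is the top Roquin san/+ point for Lyz2 (4.78), Csf1r (1.34), Tyrobp (1.24) and Camp (3.57), whereas replicate C is the top for Elane (-1.04) and Mpo (1.58).

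Among genes of dendritic cells, Itgax (CD11c), the integrin chain that defines most of them, lay at -5.87 to -1.39 in Roquin san/+ (median -4.78) and at -6.31 to -4.36 in wild-type (median -5.60). After replicate F, the next Roquin san/+ array lay at -4.30, next to the wild-type maximum. The difference was 0.73 (SE 0.62), and 0.19 without replicate F. Clec7a (dectin-1), a receptor for fungal glucans, lay at -5.63 to -0.86 in Roquin san/+ (median -5.00) and at -6.84 to -3.21 in wild-type (median -5.54), with a difference of 0.75 (SE 0.74). Clec4n (dectin-2) was well above background on 9 arrays and gave -8.15 to -3.62 in Roquin san/+ (median -6.83) and -8.31 to -6.03 in wild-type (median -7.79), with a difference of 0.78 (SE 0.64). Both lectins are carried by monocytes and macrophages as well.

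Cd209a, a homologue of DC-SIGN and a marker of monocyte-derived dendritic cells, lay at -7.65 to -3.87 in Roquin san/+ (median -5.60) and at -6.95 to -5.42 in wild-type (median -6.08), with a difference of 0.35. Siglech, a receptor of plasmacytoid dendritic cells, had a different leading array. Its repeat-bearing probe lay at 2.81 to 6.21 in Roquin san/+ (median 3.45) and at 2.54 to 3.57 in wild-type (median 2.98), and the 6.21 came from replicate C, with replicate F at 3.58. A Siglech probe without a repeat, well above background on 6 arrays, was also highest on replicate C, at -5.73, with replicate F at -8.74. The lowest level called well above background was -6.2 on Roquin san/+ C and -9.4 to -8.02 on the other well-placed arrays. A dim probe detected on that array can be highest there for that reason alone. The differences of these probes were 0.50 (SE 0.45) and 0.93, and that of the repeat-bearing probe was 0.06 (SE 0.23) without replicate C. Over the 5 dendritic cell genes tested, all 5 had a difference above 0, beside 63.4% of all tested probes. Their median was 0.73, or 0.19 without replicate F, beside 0.10 over all tested probes.

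Genes of neutrophils varied most between arrays, with a median range of 8.35 over the 12 arrays against 4.94 for the macrophage, 5.40 for the shared and 4.69 for the dendritic cell genes. S100a8 and S100a9 encode calprotectin, the dominant cytosolic protein of neutrophils. S100a8 lay at -2.75 to 3.87 in Roquin san/+ (median -1.43) and at -4.48 to 2.11 in wild-type (median -2.64). S100a9 lay at -0.82 to 5.31 in Roquin san/+ (median 1.44) and at -2.73 to 3.98 in wild-type (median -0.67). In both, Roquin san/+ F and wild-type C were the top arrays of their genotype, 5.62 and 5.64 above the median of the other arrays of their genotype for S100a8. The differences were 1.22 (SE 1.15) and 1.28 (SE 1.11), each little larger than its SE. Without Roquin san/+ F they were 0.49 and 0.66, and without both Roquin san/+ F and wild-type C they were 1.13 and 1.27.

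The secondary granule genes Camp (cathelicidin), Ltf (lactoferrin) and Ngp (neutrophilic granule protein) lie near each other on chromosome 9 and had the widest ranges of all members. Camp reached 3.57 on Roquin san/+ F and 1.27 on wild-type C, and fell to -6.11 on Roquin san/+ A and -7.89 on wild-type D. On the other arrays it lay at -3.73 to -0.67 in Roquin san/+, at -2.36 and -1.65 on wild-type A and B, and at -6.02 and -7.06 on wild-type F and G. Ltf ran from -10.31 to 1.69 in Roquin san/+ (median -4.47) and from -10.94 to -1.14 in wild-type (median -6.47). Ngp ran from -7.31 to 0.93 in Roquin san/+ (median -5.11) and from -10.68 to -1.53 in wild-type (median -7.65). Wild-type D, F and G were thus the low wild-type arrays in all 3 genes, and Ngp and Ltf were well above background on 9 of the 12 arrays. The differences were 2.41 (SE 1.53) for Ngp, 2.31 (SE 1.76) for Ltf and 1.77 (SE 1.55) for Camp. Without replicate F they were 1.52, 1.37 and 0.86, and with wild-type C also left out they were 2.4, 2.22 and 1.68. Ltf was close to the array's lowest value on Roquin san/+ A (-10.31 against -10.36), wild-type D (-10.94 against -11.02) and wild-type G (-10.25 against -10.55), and Ngp was low on wild-type D, F and G. With normexp background correction their differences were 1.67 (SE 1.14) and 1.39 (SE 1.04). Over the 7 neutrophil genes tested, all 7 had a difference above 0, beside 63.4% of all tested probes. Their median was 1.28, beside 0.10 over all tested probes. It was 0.66 without Roquin san/+ F, 0.78 without wild-type G and 1.9 without wild-type C. Without both Roquin san/+ F and wild-type C it was 1.27.

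The primary granule genes had other leading arrays. Elane (neutrophil elastase) lay at -4.69 to -1.04 in Roquin san/+ (median -3.13) and at -4.86 to -1.30 in wild-type (median -3.58). Mpo (myeloperoxidase), which makes hypochlorous acid, lay at -2.76 to 1.58 in Roquin san/+ (median -0.16) and at -3.33 to 1.89 in wild-type (median -0.46). In their genotypes, both were highest on Roquin san/+ C and wild-type C. Of all tested probes, 44.0% were highest of the 12 on Roquin san/+ C and 11.6% on wild-type C. On Roquin san/+ F, where the secondary granule genes exceeded the median of the other Roquin san/+ arrays by 6.11 to 6.29, Elane exceeded it by 0.47 and Mpo differed from it by -0.01. On wild-type C both kinds of granule gene were high, Ngp by 8.31 and Mpo by 2.82 over the median of the other wild-type arrays. The differences between genotypes were 0.59 (SE 0.63) for Elane and 0.48 (SE 0.81) for Mpo, below their SE, and the second Mpo probe, printed above, gave 0.54 and had the same highest array. The split into primary and secondary granule genes was made after the values had been seen.

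Some other neutrophil genes, named here from a list that does not contain the members, fell on the same sides, and others did not. The primary granule proteases Prtn3 and Ctsg were highest on replicate C of each genotype, where Roquin san/+ C was highest of the 12 for 44.0% of all tested probes. On Roquin san/+ F these proteases differed from the median of the other Roquin san/+ arrays by -0.21 and -0.07. The secondary granule gene Lcn2 (lipocalin-2) and the transcription factor Cebpe, which drives that stage, exceeded it there by 5.64 and 4.89. The neutrophil genes Ly6g and Csf3r exceeded it there by 0.64 and 0.26, and Csf3r was highest of the 12 on Roquin san/+ C. The Csf3r probe lay at 3.57 to 6.09 in Roquin san/+ and at 3.28 to 3.9 in wild-type, above Cd3e at 0.85 to 2.36. What that bright signal came from was not tested. On wild-type C, Ly6g and Csf3r differed from the median of the other wild-type arrays by -0.49 and -0.38. Of the 17 genes on that list 14 were highest on Roquin san/+ F, beside 12.2% of all tested probes. The list's median difference was 0.99, with 16 genes above 0, beside 63.4% of all tested probes. Without replicate F the median was 0.57, with 15 above 0, beside 62.5% of all. No gene of the list passed an adjusted p of 0.05 in limma.

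Promoters of these granule genes are shown for the letters searched in them. Of the 37 members, 28 had a promoter in the RefSeq table (GRCm38.p6), and the 250 bases before the start were searched on both strands. The purine-rich letters GAGGAAGT, of the kind PU.1 binds, were found in 5 of 28 members (Fcgr4, C1qc, S100a8, Elane and Mpo) and in 2.44% of 27025 promoters. The shorter GAGGAA, which these contain, was found in 12 of 28, with Ltf also among the 12, and in 23.1% of all. TTGCNNAA, of the kind C/EBP factors bind, was found in 7 of 28 (Cd68, Lyz1, Fcgr3, Siglech, S100a9, Ngp and Ltf) and in 9.55% of all, and its palindrome TTGCGCAA in 0 of 28 and 0.17% of all. Short stretches are printed for Mpo (chr11:87793534-87793613), Elane (chr10:79886191-79886270), Ngp (chr9:110419728-110419807) and Ltf (chr9:111019181-111019260), all on the plus strand. Capitals mark GAGGAAGT in Mpo and Elane, and TTGCNNAA, read from the opposite strand, in Ngp and Ltf.
Mpo: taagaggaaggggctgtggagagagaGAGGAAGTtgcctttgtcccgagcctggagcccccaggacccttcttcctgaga
Elane: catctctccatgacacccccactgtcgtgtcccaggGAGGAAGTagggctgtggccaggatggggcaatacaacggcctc
Ngp: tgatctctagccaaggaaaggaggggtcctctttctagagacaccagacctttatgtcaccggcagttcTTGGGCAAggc
Ltf: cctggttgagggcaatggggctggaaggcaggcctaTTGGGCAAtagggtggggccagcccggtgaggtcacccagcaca

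The marked letters start 224 bases before the start of Mpo, 85 before Elane, 11 before Ngp and 75 before Ltf. A match of this kind describes the sequence and is not a binding site. Primary and secondary granule genes were not compared for these letters.

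Genes shared by several myeloid cell types include signalling adaptors. Fcer1g, the common γ chain of activating Fc receptors, lay at -3.55 to 0.59 in Roquin san/+ (median -2.29) and at -4.53 to -1.98 in wild-type (median -3.51). Tyrobp (DAP12), an adaptor of myeloid and NK cell receptors, lay at -2.51 to 1.24 in Roquin san/+ (median -2.03) and at -4.15 to -0.73 in wild-type (median -2.64). Cybb, the catalytic subunit of the phagocyte NADPH oxidase, lay at -5.04 to -0.78 in Roquin san/+ (median -4.46) and at -6.36 to -3.46 in wild-type (median -5.06). All 3 were highest on Roquin san/+ F, and the other 5 Roquin san/+ arrays overlapped the wild-type range in each. The differences were 1.17 (SE 0.57), 1.03 (SE 0.62) and 1.21 (SE 0.62), and 0.70, 0.55 and 0.68 without replicate F.

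The transcription factors behaved less uniformly. Spi1 (PU.1), the master regulator of myeloid cells and also present in B cells, was well above background on 6 of the 12 arrays, at -10.68 to -5.25 in Roquin san/+ (median -8.06) and at -10.60 to -7.47 in wild-type (median -9.30), with a difference of 0.74. Cebpa was the member with its highest level on Roquin san/+ D, at -5.33, with replicate F at -5.47. It lay at -6.42 to -5.33 in Roquin san/+ (median -5.79) and at -8.83 to -5.35 in wild-type (median -6.10), and its difference was 0.85. Cebpb lay at -2.90 to 0.11 in Roquin san/+ (median -2.08) and at -3.18 to -1.57 in wild-type (median -2.11), with a difference of 0.47 (SE 0.42).

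Itgam (CD11b), the integrin chain of the complement receptor on myeloid cells, had a difference of 1.77 (SE 0.77) on the repeat-bearing probe, and of 1.07 (SE 0.46) without Roquin san/+ C. Without that array Cybb was at 1.27, Fcer1g at 1.14 and Tyrobp at 1.13. That probe lay at -1.37 to 4.78 in Roquin san/+ (median 0.35) and at -2.29 to -0.41 in wild-type (median -1.38), with 4.78 on replicate C and 0.69 on replicate F. The Itgam probe without the repeat lay at -7.83 to -5.30 in Roquin san/+ and at -8.19 to -7.78 in wild-type, also highest on replicate C, with a difference of 0.96. That probe was dim, and the lowest level called well above background was -6.2 on Roquin san/+ C, higher than on the other well-placed arrays. Over all tested probes with a tandem repeat, 343 of 579 (59.2%) were highest on Roquin san/+ C, against 43.7% of the tested probes without one. The part of the repeat in the Itgam and Siglech values was not tested. Over the 7 shared genes, all 7 had a difference above 0, beside 63.4% of all tested probes. Their median was 1.03, or 0.68 without replicate F, beside 0.10 over all tested probes.

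**Figure D3:**
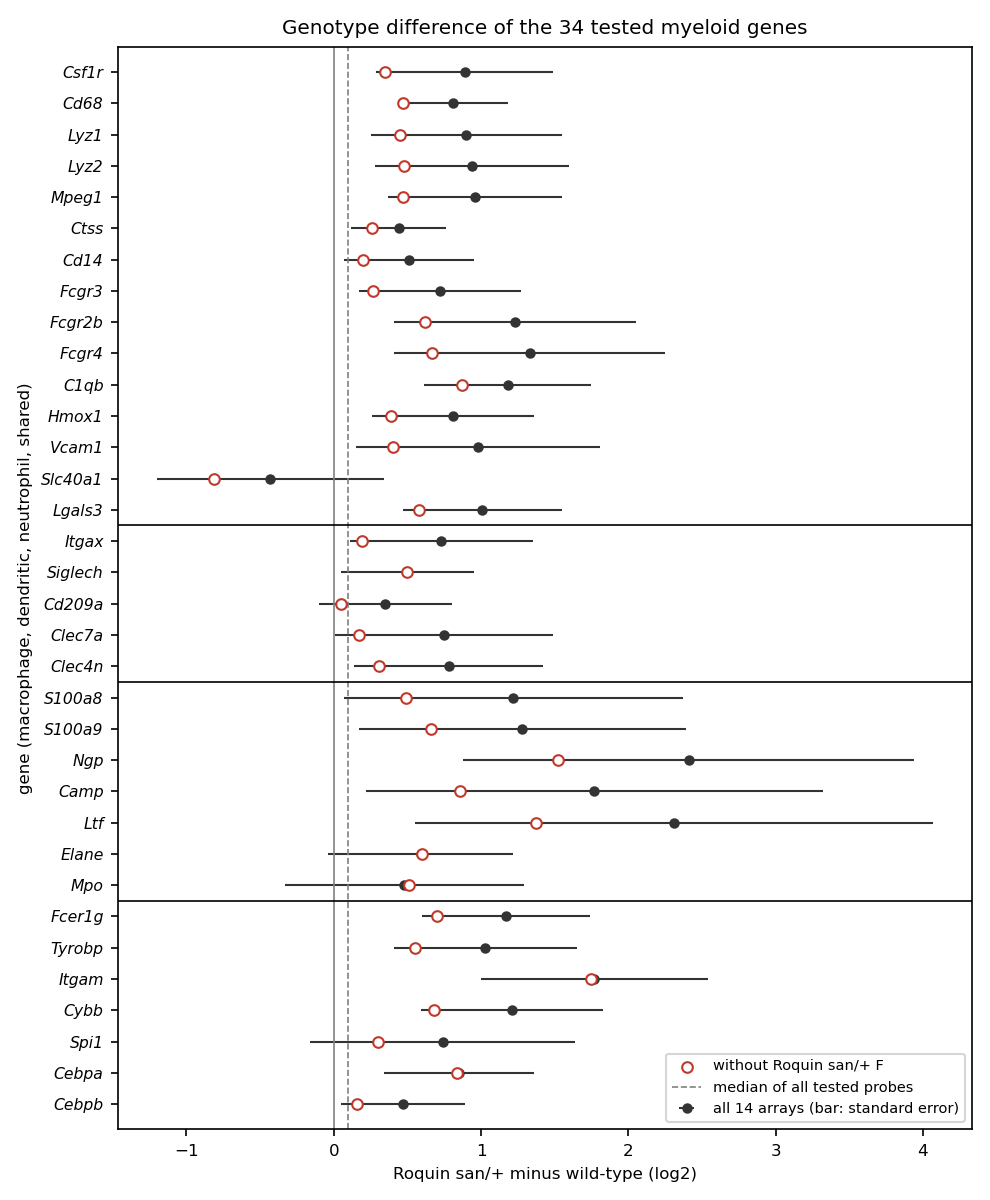
Difference between genotypes (horizontal axis, Roquin san/+ minus wild-type, log2) of the 34 tested myeloid genes, with all 14 arrays (filled points, bars of 1 standard error) and without Roquin san/+ F (open circles). The dashed line is the median of all tested probes, 0.10. Of the 34 filled points 33 lie above 0, and 30 of the 34 lie nearer to 0 once replicate F is left out.

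No member passed the test across all probes. At an adjusted p of 0.05 in limma, 0 of 48 member probes and 0 of 32831 probes (percent called 0) passed, and the lowest adjusted p of any member was 0.884. At an unadjusted p of 0.05, 2 of 34 members (Itgam and Cd68) were higher in Roquin san/+, beside 968 probes or 2.95% of all tested, and 0 members were lower, beside 92 probes or 0.280%. A difference above 0 was found for 33 of 34 members and for 63.4% of all tested probes. A difference of at least 2-fold was found for 13 of 34 members and for 4.40% of all, and without replicate F for 3 of 34 (Ngp, Ltf and Itgam) and 3.46% of all. Without replicate F a difference above 0 was again found for 33 of 34 members, beside 62.5% of all. The share of all probes above 0 depended on the scaling, whereas the members' count moved by at most 1. Under quantile normalization 13180 of 32831 probes and 32 of 34 members were above 0, and with normexp background correction 26498 of 32831 and 33 of 34. The members were chosen with these differences known, so the counts describe the list and test nothing.

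Some differences rest partly on lowest values. Of the 34 members, 11 were at the lowest value of wild-type E, and 6 of these also at that of Roquin san/+ G, which stands in the fit for a level that was not measured. Without both displaced arrays the differences of these genes were 0.57 for Cd14, 0.65 for Fcgr3, 1.33 for Fcgr2b, 1.58 for Fcgr4, 1.41 for C1qb, 1.18 for Vcam1, 0.44 for Cd209a, 0.94 for Clec4n, 1.08 for Cybb, 0.90 for Spi1 and 0.73 for Cebpa. All 11 kept a difference above 0, and 33 of the 34 members did so, beside 63.2% of all probes. The median of all 34 was then 1.0, or 0.45 with Roquin san/+ F also left out.

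The direction of the difference changed with the slide. Within slide 1, all 34 members were higher in Roquin san/+ (69.2% of all probes), with a median difference of 1.94. Within slide 2, 10 of 34 were higher (36.8% of all probes), with a median of -0.19. The median of all tested probes was 0.30 within slide 1 and -0.14 within slide 2, close to the members' median only on slide 2. For 32 of the 34 members the difference was larger on slide 1, and the exceptions were Ctss and Cd209a. Camp was 5.17 (SE 2.20) on slide 1 and -0.68 (SE 2.05) on slide 2, and Csf1r was 1.96 (SE 1.06) and -0.20 (SE 0.58). The 10 members that were higher in Roquin san/+ on both slides were Cd68 (1.18 and 0.31), Lyz2 (1.82 and 0.15), Ctss (0.20 and 0.39), Lgals3 (1.91 and 0.27), Cd209a (0.26 and 0.65), Clec7a (1.93 and 0.01), Ltf (5.48 and 0.30), Fcer1g (2.06 and 0.29), Tyrobp (1.64 and 0.53) and Itgam (1.54 and 1.38). Slide 1 held Roquin san/+ F and the wild-type arrays F and G, of which G was the lowest of the 12 for 9 members and F for 4, and slide 2 held wild-type C. With slide as a block the median over the members was 0.94, and no probe passed the adjusted p.

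**Figure D4:**
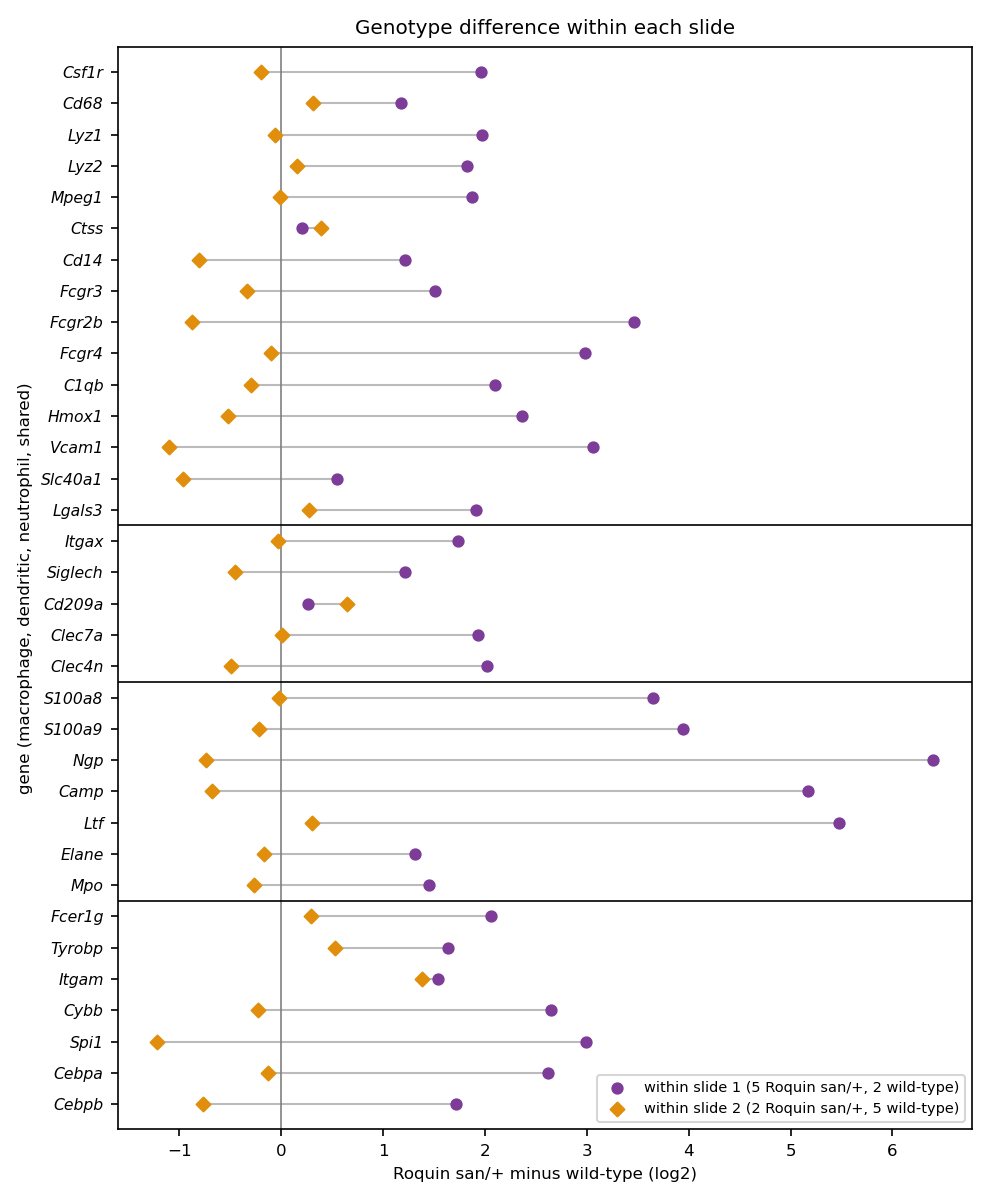
Difference between genotypes (horizontal axis, Roquin san/+ minus wild-type, log2) of the 34 tested myeloid genes within slide 1 (circles) and within slide 2 (diamonds), joined by a line for each gene. All 34 circles lie above 0 and 24 of the 34 diamonds lie below 0.

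Markers of some other cell types moved with the myeloid genes. On Roquin san/+ F the mean level of 9 B-cell genes was 0.08, against -6.24 to -3.03 on the other 5 well-placed Roquin san/+ arrays, and Ms4a1 (CD20), a surface protein of B cells, reached 2.15 there. Cd8b1 was 0.99 on that array. The mean of 7 NK cell genes on it was -1.19 and that of 7 erythroid genes -0.86, both the highest of the 12. All 7 NK cell genes but 3 of the 7 erythroid genes were highest there, and the erythroid mean on wild-type C was -0.90. Plasma cell and stroma genes did not follow, with 1 of 7 and 0 of 3 highest on Roquin san/+ F, beside 12.2% of all tested probes. The mean of 11 T-cell genes on that array was 0.53, the lowest of the 12, with 5 of the 11 genes lowest there. The arrays next lowest for the T-cell genes were Roquin san/+ C at 0.59 and wild-type C at 0.73, and the remaining 9 lay at 1.54 to 2.06.

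Wild-type C had the highest wild-type mean for the macrophage (-2.96), dendritic cell (-3.18) and neutrophil (0.75) members, and for the NK cell (-4.25) and erythroid genes (-0.90), with all 7 erythroid genes highest of the 6 wild-type arrays, whereas its B-cell mean of -5.33 lay among the other wild-type arrays. Wild-type B had the highest wild-type B-cell mean, -1.81, with a macrophage mean of -3.06 and a neutrophil mean of -1.63. Roquin san/+ C, the array on which Elane and Mpo were highest in their genotype, had an erythroid mean of -1.61, and the erythroid regulators Klf1 and Epor were also highest there among the Roquin san/+ arrays, at -1.71 and 0.13. On Roquin san/+ F, Klf1 and Epor lay 1.07 and 1.08 below the median of the other Roquin san/+ arrays, whereas Hba-a1 lay 4.51 above it. The part of these other cell types in the genotype differences was not tested. Without both Roquin san/+ F and wild-type C, 33 of the 34 members had a difference above 0 (60.4% of all probes), with a median of 0.76. Without both Roquin san/+ F and Roquin san/+ C, 31 of the 34 did, with a median of 0.42, and 18571 of 32857 probes.

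**Figure D5:**
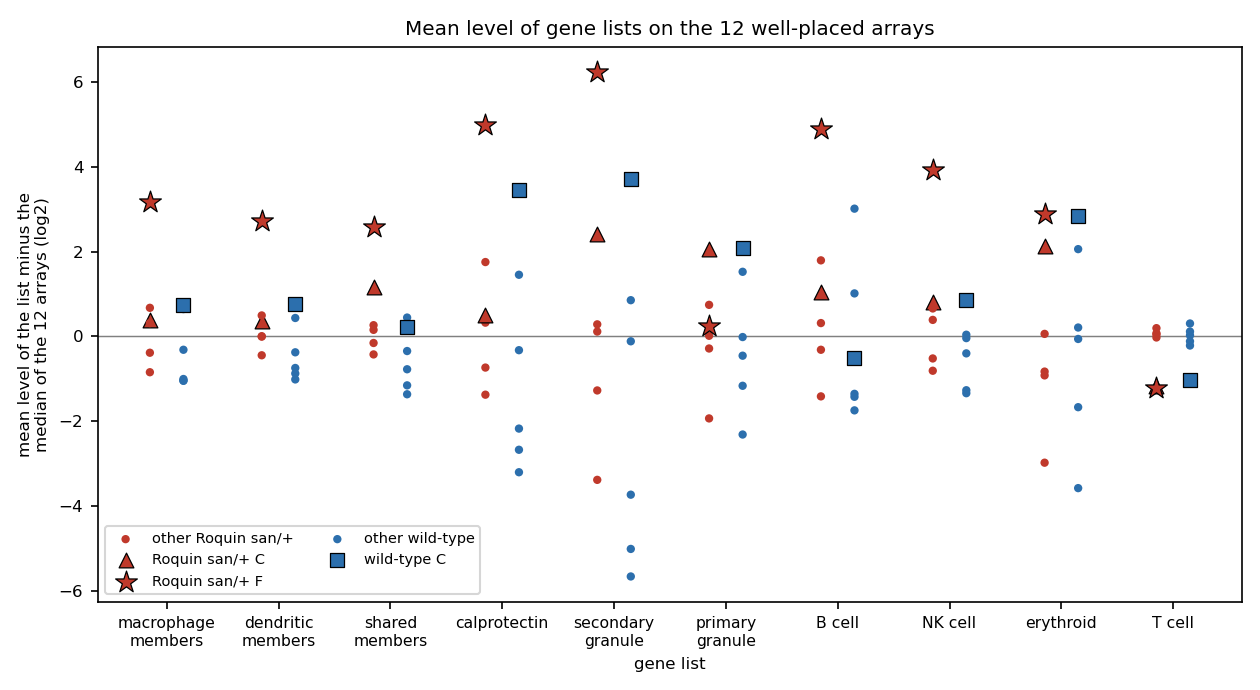
Mean level of each gene list on the 12 well-placed arrays (log2, relative to the list's median over those arrays), with Roquin san/+ in red and wild-type in blue. Roquin san/+ F (star) is highest for every list shown except the primary granule and T-cell genes, and wild-type C (square) is high for calprotectin, granule and erythroid genes but not for B-cell genes.

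Lists of other myeloid genes that exclude the members were counted in the same way. A difference above 0 was found for 63.4% of all tested probes, and 12.2% were highest on Roquin san/+ F. Of 13 further macrophage genes tested, 10 had one, a share near that of all probes, with a median of 0.72, and 9 were highest on Roquin san/+ F, among them Adgre1, a surface receptor that marks mature macrophages, at -1.92 there, between -7.64 and -5.53 on the remaining Roquin san/+ arrays, and between -8.16 and -5.24 in wild-type. Of 13 further dendritic cell genes, 12 had a difference above 0 with a median of 0.51, and of 10 monocyte genes, 9 with a median of 0.54, in which the chemokine receptor Ccr2 was at -0.86 on Roquin san/+ F. None of these genes passed an adjusted p of 0.05 in limma. Without replicate F the medians were 0.37, 0.24 and 0.41.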

How the data were processed

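Total RNA of CD4+ T-cells was hybridised to one-colour Agilent mouse arrays, 7 labelled Roquin san/+ and 7 labelled wild-type. Per the file headers, the deposited scanner intensity (gProcessedSignal) had been background-corrected by Agilent Feature Extraction 10.5.1.1. A second table deposited by the authors held log2 values with equal quantiles on all arrays, and its method is not given in the sources used here. On Roquin san/+ G and wild-type E the spots were moved by 2 grid rows, at a loss of 328 spots each. Control spots and spots flagged as non-uniform were left out on all arrays. Spots flagged as population outliers were left out on the well-placed arrays, and that flag was not used on the moved ones. Spots of a probe were averaged after log2. From each array its 75th percentile was subtracted, taken over the 10320 probes that every array had well above background. Probes well above background on at least 6 of the 12 well-placed arrays, irrespective of genotype, were tested (32831 probes, after 283 with a missing value were left out). limma 3.58.1 (R 4.3.3, lmFit and eBayes, two-sided) compared the genotypes, with Benjamini-Hochberg adjustment over all tested probes at 0.05, and was tested on simulated data. A gene took its tested probe with the highest mean over the well-placed arrays.

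The members and all gene lists were chosen with earlier results of these data known. Levels are given for every tested member. Differences with their SE are given for the members well above background on all 12 well-placed arrays and for the 3 largest in each group. For the other tested members the difference alone is given. Alternatives were the background correction, the normalization, the filter on dim probes, the slide and the replicate letter as blocks, each slide alone, the deposited log2 values, the displaced arrays and each array left out. After seeing the data, 3 sets of arrays left out together and the second probe of Siglech and Itgam were added. The number of arrays limits the precision. Tables were prepared in pandas 2.3.3 and numpy 2.4.6 under Python 3.11.15.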

Additional observations from a re-analysis of the deposited data

Results flagged for a closer look

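In each group of 6 well-placed arrays, the level of each tested member and the mean of each of the 4 parts of the list were searched for an array far from the other 5. Of 68 groups searched 11 held one, where chance alone gives about 1 in 20, and members that vary together on an array are flagged together.

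Roquin san/+ F was the array that stood apart in 10 of these, always above the other 5 Roquin san/+ arrays. The mean of the dendritic cell genes was -1.23 on it, against -4.40 to -3.46 on the others. Csf1r was 1.34 against -3.44 to -1.80, Cd68 was -1.23 against -3.77 to -3.33, Mpeg1 was 0.57 against -3.80 to -2.30, and Lgals3 was 1.72 against -1.87 to -0.87. Fcgr4 was -2.52 against -8.49 to -6.27, and Itgax was -1.39 against -5.87 to -4.30. Among the shared genes, Fcer1g was 0.59 against -3.55 to -2.04, Tyrobp was 1.24 against -2.51 to -1.44, and Cybb was -0.78 against -5.04 to -4.20. No neutrophil gene was among them. Camp, Ltf and Ngp had the widest ranges and were spread over the other Roquin san/+ arrays as well.

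Roquin san/+ C stood apart for Siglech alone, at 6.21 against 2.81 to 3.70, on the probe with the tandem repeat. No wild-type group was flagged.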

How the results depend on the processing

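No probe passed an adjusted p of 0.05 in limma under any alternative run. The median difference over the members (0.89) stayed above 0 under every alternative except within slide 2. There the medians were -0.19 for all members, -0.20 for the macrophage, -0.03 for the dendritic cell, -0.22 for the neutrophil and -0.13 for the shared genes. All tested probes had a median of -0.14 within slide 2. The median difference moved by more than the spread between arrays within slide 1 for the dendritic cell (1.74), neutrophil (3.94) and shared genes (2.06). Leaving out each array in turn gave medians of 0.49 to 1.15 for the members, 0.45 to 1.15 for the macrophage, 0.19 to 0.93 for the dendritic cell, 0.66 to 1.90 for the neutrophil and 0.68 to 1.33 for the shared genes, with Roquin san/+ F as the array behind each lowest value, and 0 probes called.

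Arrays with the same replicate letter deviated from their genotype's mean with correlations of -0.28 to 0.41 over 7 letters. The labels do not say whether the letters pair the arrays, and these correlations cannot decide it. With the replicate letter as a block the members' median was 0.89, and with letter and slide both as blocks it was 1.67. With both blocks the neutrophil median was 3.64, which also moved by more than the spread between arrays.

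Of 30 members whose differences were followed, 20 changed sign within slide 2: Csf1r -0.20, Lyz1 -0.06, Mpeg1 -0.01, Cd14 -0.81, Fcgr3 -0.34, Fcgr2b -0.88, Fcgr4 -0.10, C1qb -0.30, Hmox1 -0.52, Itgax -0.03, Siglech -0.45, Clec4n -0.49, S100a8 -0.02, S100a9 -0.22, Ngp -0.74, Camp -0.68, Elane -0.17, Mpo -0.27, Cybb -0.23 and Cebpb -0.77. Slc40a1 turned positive within slide 1 (0.55), with letter and slide as blocks (1.07) and with the mean of its probes (0.04). Siglech was -0.02 with both blocks and -0.02 without Roquin san/+ F and C, and Cebpb was -0.03 without those arrays. Within slide 2 the share of all tested probes above 0 was 36.8%, with a median of -0.14. The cause was not tested.

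The scaling moved the median of all probes from 0.10 to -0.07 with the percentile over all probes and with the deposited log2 values, to -0.08 with quantile normalization, and to 0.28 with normexp. The members' medians under these were 0.72, 0.55, 0.76 and 0.86. With no filter on dim probes they were 0.94 against 0.40 for all probes.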

Other observations

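Other cell types that a T-cell preparation could hold were read from lists of their genes. Of all tested probes, 63.4% had a difference above 0, or 62.5% without Roquin san/+ F, and 12.2% were highest on that array. Platelet genes, of which 5 of 6 were tested, had a median difference of 0.91 between the genotypes and 0.46 without Roquin san/+ F, with all 5 above 0 and 4 of 5 highest on that array. Pf4, a chemokine of platelet granules, lay at -1.43 on Roquin san/+ F and at -3.55 on wild-type C, the highest array of each genotype. NK cell genes had a median of 1.1, or 0.53 without Roquin san/+ F, with 6 of 7 above 0 and all 7 highest on that array. Plasma cell genes behaved otherwise: all 7 tested were above 0, with a median of 0.58 that was 0.53 without Roquin san/+ F. Of the 7, 1 was highest on that array and 5 on Roquin san/+ C, which was highest for 44.0% of all tested probes. A median of this list without Roquin san/+ C was not taken. B-cell genes had a median of 0.88, or 0.27 without Roquin san/+ F, with 9 and 8 of 9 above 0. Erythroid genes had a median of 0.04 with 4 of 7 above 0, and without Roquin san/+ F a median of -0.39 with 0 of 7 above 0. Genes of stroma and vessels were mostly dim, with 3 of 7 tested and none highest on Roquin san/+ F. No gene of these lists passed an adjusted p of 0.05 in limma.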
